A study of Mus musculus with 9 samples.

Results

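The DNA replication machinery was followed here as 41 genes that build and move the replication fork, picked by their symbols out of the 17769 genes of a count table. The RNA came from C57BL/6N mouse bone marrow, from cells that flow cytometry had sorted as MEP. The letters stand for megakaryocyte-erythroid progenitors, the shared precursors of red cells and of the megakaryocytes that shed platelets. The E12 group carried SclCre and an Exon12 allele of Jak2, the kinase behind the erythropoietin and thrombopoietin receptors, and was taken 6 weeks after tamoxifen. The VF group carried SclCre and the V617F allele and was taken at 12 weeks, and the WT group was also taken at 12 weeks. All groups are labelled as given 5 daily tamoxifen injections, which switch on SclCre, a recombinase used to recombine alleles in blood stem and progenitor cells, and the labels do not say whether WT mice carried SclCre. Each group has 3 libraries, named E12 1, E12 2 and E12 5, VF 1, VF 2 and VF 3, and WT 50, WT 51 and WT 52. The labels do not say that these are separate mice, so p-values measure the spread between these libraries. E12 differs from both other groups in time as well as genotype, so these cannot be told apart in comparisons with E12, while VF and WT share the 12 weeks. The WT numbers come from another range than those of the mutants, and in comparisons with WT the library numbering and the genotype cannot be told apart.

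Replication starts with licensing, when the origin recognition complex (Orc1 to Orc6) with Cdc6 and Cdt1 loads the ring helicase Mcm2 to Mcm7 onto DNA. Cdc45 and the GINS complex, helped by Mcm10, turn the loaded ring into an active helicase, after which DNA polymerase alpha with primase lays primers and the polymerases delta and epsilon extend them. PCNA is the sliding clamp that holds those polymerases, the Rfc proteins load it, RPA covers single-stranded DNA, and Fen1 and Lig1 join the pieces of the lagging strand. Dtl marks Cdt1 and other proteins for destruction on DNA-bound PCNA, and Uhrf1 brings the maintenance DNA methyltransferase to newly copied DNA. Erythroid progenitors divide fast as they mature, and many of these genes are transcribed at entry into S phase under E2F factors.

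The promoters of 5 of these genes are shown because the genes stand for the responses described further on. Cdc6 is a licensing gene, Mcm3 and Mcm6 are helicase genes, Dtl lay above WT in both mutant groups and Rfc4 lay furthest below WT in VF. Each runs 5′ to 3′ on the gene's own strand from 250 bases before to 50 bases after the RefSeq start (RefSeq sequence, GRCm38.p6). Capitals mark matches on either strand to the E2F consensus octamers TTTCCCGC, TTTCGCGC, TTTGCCGC and TTTGGCGC, which were allowed to overlap. The positions are chr11:98907901-98908200 (plus strand) for Cdc6, chr1:20820263-20820562 (minus strand) for Mcm3, chr1:128359656-128359955 (minus strand) for Mcm6, chr1:191575495-191575794 (minus strand) for Dtl and chr16:23127681-23127980 (minus strand) for Rfc4.
Cdc6: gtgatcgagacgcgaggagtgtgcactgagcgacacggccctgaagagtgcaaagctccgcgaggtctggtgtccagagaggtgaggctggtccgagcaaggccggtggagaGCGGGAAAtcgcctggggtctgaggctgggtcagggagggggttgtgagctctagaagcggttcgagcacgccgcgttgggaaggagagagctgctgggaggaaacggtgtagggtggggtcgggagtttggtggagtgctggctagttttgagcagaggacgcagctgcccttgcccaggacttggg
Mcm3: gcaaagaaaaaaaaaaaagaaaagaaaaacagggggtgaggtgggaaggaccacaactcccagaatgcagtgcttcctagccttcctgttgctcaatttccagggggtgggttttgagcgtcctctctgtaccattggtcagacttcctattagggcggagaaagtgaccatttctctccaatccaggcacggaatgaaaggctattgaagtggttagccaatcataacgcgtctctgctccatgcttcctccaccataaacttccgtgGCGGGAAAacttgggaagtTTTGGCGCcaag
Mcm6: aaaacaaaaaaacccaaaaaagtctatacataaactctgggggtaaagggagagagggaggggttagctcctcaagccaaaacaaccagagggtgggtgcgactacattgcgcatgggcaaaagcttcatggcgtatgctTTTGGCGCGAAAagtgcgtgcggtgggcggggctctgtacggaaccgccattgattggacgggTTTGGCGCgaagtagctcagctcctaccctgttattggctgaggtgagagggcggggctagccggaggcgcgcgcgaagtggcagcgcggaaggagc
Dtl: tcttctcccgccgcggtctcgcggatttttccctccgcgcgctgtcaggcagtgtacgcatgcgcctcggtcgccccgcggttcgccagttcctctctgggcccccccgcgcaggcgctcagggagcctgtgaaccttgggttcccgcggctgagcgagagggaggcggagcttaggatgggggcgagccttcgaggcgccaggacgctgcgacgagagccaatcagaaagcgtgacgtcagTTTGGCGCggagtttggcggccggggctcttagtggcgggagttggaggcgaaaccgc
Rfc4: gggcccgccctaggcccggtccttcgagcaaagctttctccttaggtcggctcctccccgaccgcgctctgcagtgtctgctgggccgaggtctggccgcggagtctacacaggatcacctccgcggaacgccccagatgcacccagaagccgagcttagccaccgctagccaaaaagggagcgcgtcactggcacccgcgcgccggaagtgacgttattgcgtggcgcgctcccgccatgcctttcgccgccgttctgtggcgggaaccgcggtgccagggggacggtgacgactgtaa

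The Cdc6 match begins 138 bases before the start, and the Dtl match begins 8 bases before it. The Mcm6 window holds 3 matches, beginning 110, 106 and 47 bases before the start, of which the first 2 overlap. The Mcm3 window holds 2, beginning 19 and 38 bases after the start, and the Rfc4 window holds none of these letters. A promoter sequence was matched for 34 of the 41 genes, and 16 of those (47.1%) held at least 1 such octamer, against 557 of the 13445 count-table genes with a promoter (4.14%). The CCAAT box was found on either strand in 23 of the 34 (67.6%), against 42.3% of the count-table genes. The median log2 fold change of the 16 genes with an E2F octamer was -0.04 for E12 against WT, -0.55 for VF against WT and 0.36 for E12 against VF. The 18 without one had medians of -0.53, -1.08 and 0.55 in the same 3 comparisons. The 7 genes without a promoter sequence had medians of -1.76, -1.77 and 0.35. These sets were not matched for gene length, which the differences from WT followed (described further on). The part of length in these medians was not tested. A match is a description of letters and not a binding site.

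The WT libraries stood apart from the mutant libraries and from each other. The E12 libraries held 20328414 to 23499914 counts, the VF libraries 19256431 to 21331168 counts and the WT libraries 33838681 to 39736096 counts. Genes listed at 0 made up 12.4 to 18.7% of the E12 tables, 10.7 to 12.4% of the VF tables and 27.2 to 30.1% of the WT tables. Genes shorter than 2 kb took 33.3 to 37.5% of the counts in E12 and 34.7 to 36.5% in VF, but 74.5%, 57.9% and 48.3% in WT 50, WT 51 and WT 52. The sorted identity was checked on Gata1, a defining erythroid factor, which had 487, 384 and 433 CPM (counts scaled to a common library size with TMM factors) in E12, 179, 215 and 186 CPM in VF, and 421, 1025 and 836 CPM in WT. Itgb3, a megakaryocyte integrin, had 17.3 to 21.8 CPM in E12 and 116 to 157 CPM in VF and was at 0 in all 3 WT libraries. Other megakaryocyte markers were present in WT. Gp9 had 12.3 to 13.8 CPM in E12, 38 to 48 CPM in VF and 7.44 to 15.2 CPM in WT. Vwf had 17.4 to 31.6 CPM in E12, 115 to 136 CPM in VF and 9.69 to 24.3 CPM in WT.

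All 41 replication genes had counts in every library and passed the filter on low counts. Within the mutant groups the replicates lay close together, with a median ratio of the highest to the lowest CPM of 1.2 in E12 and 1.1 in VF, and 0 of 41 genes differed by more than 2-fold. In WT the same ratio had a median of 3.09 and exceeded 2-fold for 29 of 41 genes, from 1.08 for Rfc1, the large subunit of the clamp loader, to 10.7 for Orc1, the largest origin recognition subunit. WT 50 was the lowest WT library for 24 genes and the highest for 15. The 41 genes together took 1.17, 1.12 and 1.07% of the counts in E12 1, E12 2 and E12 5, 0.907, 0.938 and 0.9% in VF 1, VF 2 and VF 3, and 0.588, 1.1 and 1.44% in WT 50, WT 51 and WT 52. The E12 shares all lay above the VF shares, and the WT shares spanned both. After TMM scaling the summed CPM of the 41 genes was 10748, 9432 and 9481 in E12, 7183, 7454 and 7026 in VF, and 12891, 13094 and 16586 in WT. On this scale every WT library lay above every mutant library. That order comes with the scaling and is absent from the unscaled shares. The TMM factors were 0.456, 0.841 and 0.869 in WT 50, WT 51 and WT 52, 1.09 to 1.19 in E12 and 1.26 to 1.28 in VF, and a smaller factor gives a larger CPM.

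**Figure D1:**
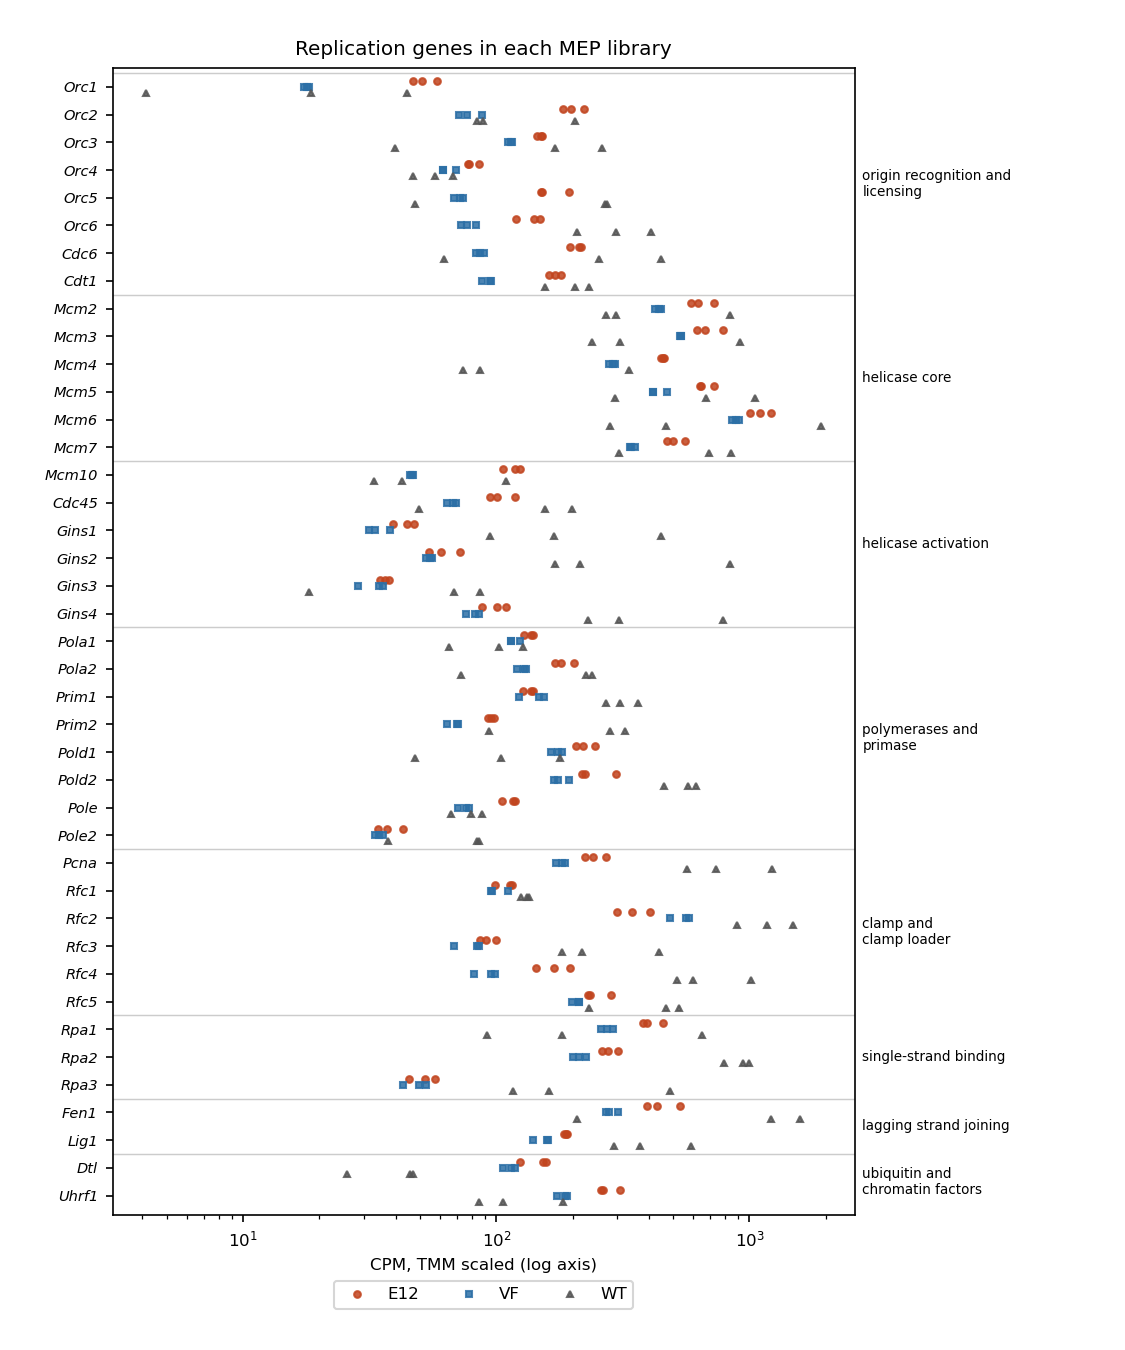
Level of each of the 41 replication genes in each library (CPM, TMM scaled, log axis), grouped by role, with 1 point per library for E12, VF and WT. The E12 and VF points form tight clusters, while the WT points spread by up to 10.7-fold for Orc1.

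The make-up of this pool by role was alike in the mutant libraries and differed between WT libraries. The 6 helicase core genes made 41.5, 42 and 40% of the summed CPM of the 41 genes in E12 and 39.7, 40.1 and 41.6% in VF. In WT 50, WT 51 and WT 52 they made 11.4, 19.2 and 35.6%. The clamp and clamp loader genes went the other way across WT, with 35.1, 25.9 and 16.6%, against 12.1 to 12.5% in E12 and 15.7 to 17.3% in VF. The ratio of Mcm6 to Pcna CPM was 5.04, 4.96 and 3.68 in E12, 4.69, 4.86 and 5.16 in VF, and 0.23, 0.629 and 3.38 in WT. On these measures WT 52 lay nearest to the mutant libraries and WT 50 furthest from them.

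**Figure D2:**
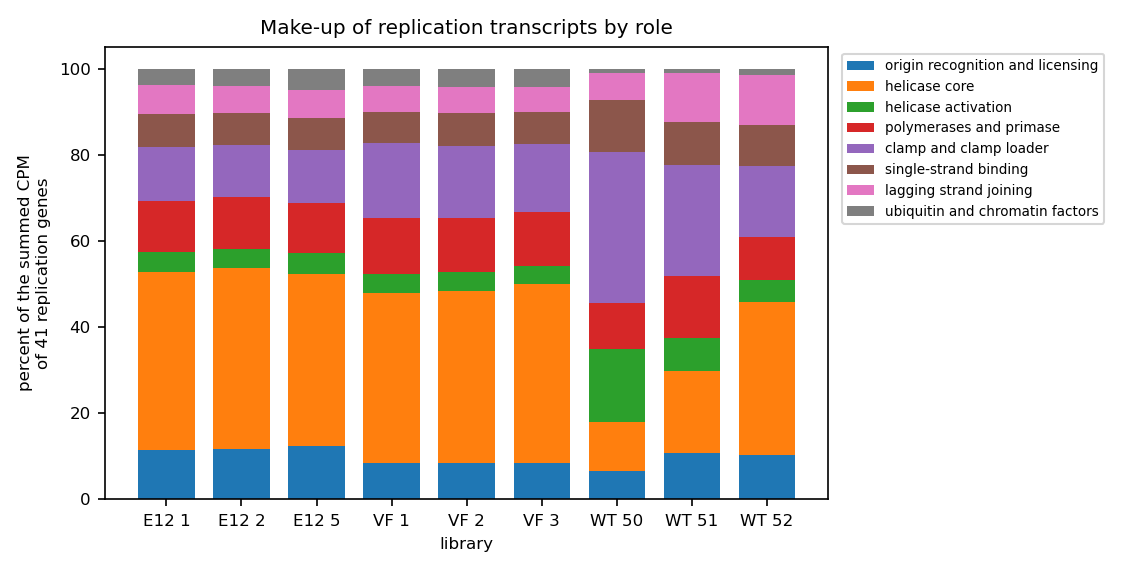
Share of each role in the summed CPM of the 41 replication genes (percent, stacked bars), 1 bar per library, E12 left, VF middle, WT right. The helicase core makes 40 to 42% of the E12 bars, 39.7 to 41.6% of the VF bars and 11.4 to 35.6% of the WT bars.

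Per kilobase of gene length the most abundant replication transcripts in the mutant cells were those of the helicase and Rfc2, a small clamp loader subunit. In E12 the mean level was 249.8 RPKM (the CPM divided by the gene length in kb) for Mcm6, 239 RPKM for Mcm3 and 229.8 RPKM for Rfc2, whose library ranges of 226 to 275, 215 to 271 and 197 to 267 RPKM overlapped. In VF Rfc2 led with 356 RPKM (321 to 379), above Mcm6 with 199 RPKM (192 to 205) and Mcm3 with 185 RPKM (184 to 187), and the 3 ranges did not overlap. In WT Rfc2 had 779.5 RPKM (586 to 977), Pcna 669.7 RPKM (451 to 971) and Rfc4, another small clamp loader subunit, 582 RPKM (426 to 831), again with overlapping ranges. At the low end in E12 stood Gins3, a GINS subunit, with 15 RPKM, and Pole, the catalytic subunit of polymerase epsilon, with 15.8 RPKM. Orc1 was the lowest in VF with 5.93 RPKM and in WT with 7.43 RPKM.

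Before correction for gene length, E12 libraries had less RNA than WT of 3 of the 4 GINS genes, of Pcna, of 3 of the 5 clamp loader genes and of 2 of the 3 RPA genes. No helicase core gene was called lower. Of the 41 genes 14 fell and 3 rose, and 24 were not called (edgeR quasi-likelihood test, adjusted p under 0.05), where 18.1% of all 13608 tested genes fell and 23.9% rose. Of those 14, 13 are shorter than 2 kb, where 43.6% of all tested genes fell, and the helicase core genes are all longer. The median log2 fold change of the 41 was -0.27, against 0.36 over all tested genes. With limma on the authors' deposited log2 levels the direction of this median turned, to 0.35 against 0.2 over all tested genes, with 8 genes called lower and 11 higher, where 20.5% of tested genes were called lower and 21.1% higher. VF cells showed the lower levels more widely. Of the 41 genes 20 fell and 1 rose, and 20 were not called, where 20.9% of tested genes fell and 27.7% rose, and the median was -0.98, against 0.36 over all tested genes. With the deposited levels 12 were called lower and 6 higher in VF, where 24.3% and 25.5% of tested genes were, with a median of -0.29 against 0.16. Both comparisons use the same 3 WT libraries. In fits of only the compared groups 11 fell and 1 rose in E12, where 10.5% of tested genes fell and 12.7% rose, and 15 fell and 1 rose in VF, where 16.2% fell and 21.3% rose. All libraries of a mutant group lay below WT for 14 genes in E12 and 18 in VF and above WT for 8 in E12 and 1 in VF, where 20.3% and 23% of tested genes lay below and 33% and 39.7% above. In bulk RNA, fewer cells of a type and less RNA per cell cannot be told apart, and 3 libraries against 3 cannot give an exact permutation p below 0.1. The counts rest in part on single libraries. Without WT 50, 26 genes fell in E12 and 30 in VF, where 24% and 27.1% of tested genes fell. Without WT 52, 11 rose in E12 and 6 in VF, where 27.8% and 30.8% of tested genes rose, so the E12 share of the 41 is near that of all genes. Without E12 5, 1 rose in E12, where 17.4% of tested genes rose.

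**Figure D3:**
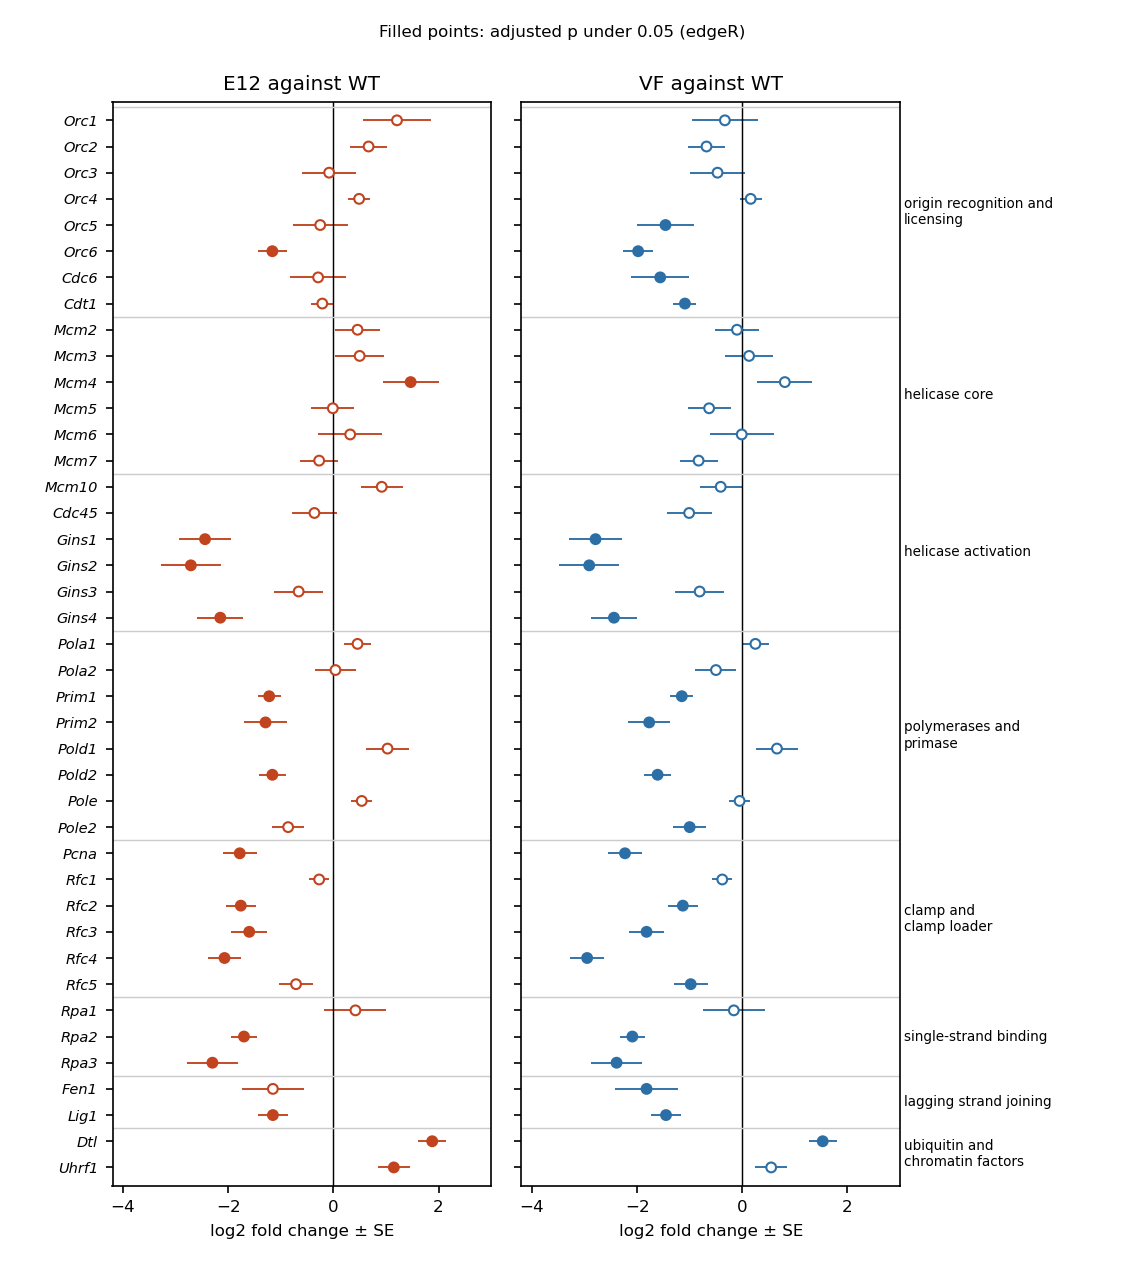
log2 fold change ± SE of each replication gene for E12 against WT (left) and VF against WT (right) in the edgeR fit of all 9 libraries, with filled points for an adjusted p under 0.05. GINS, clamp and clamp loader genes, Rpa2 and Rpa3 lie on the left of 0, down to -2.71 for Gins2 in E12 and -2.95 for Rfc4 in VF, and Dtl lies on the right in both panels.

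Among the 8 origin recognition and licensing genes, 1 fell and 7 were not called in E12 against WT, and 4 fell and 4 were not called in VF against WT. Of all tested genes 18.1% fell in E12 and 20.9% in VF, and the E12 count of 1 in 8 lies near that share. Orc6, the smallest origin recognition subunit, had 149, 119.5 and 141 CPM in E12, 76.7, 83.2 and 72.5 CPM in VF, and 408, 298 and 208 CPM in WT. The 3 groups did not overlap, VF being lowest and WT highest. Its log2 fold change was -1.16 (SE 0.28, edgeR adjusted p = 0.011) for E12 against WT and -1.98 (SE 0.28, edgeR adjusted p = 0.00097) for VF against WT, and the E12 call was lost without E12 2 (edgeR adjusted p = 0.051). Cdt1, which escorts the helicase to the origin, had 179.7, 161 and 169.9 CPM in E12, 95.3, 94.8 and 87.9 CPM in VF, and 156, 232 and 204 CPM in WT. E12 overlapped WT and VF lay below both. Cdt1 fell in VF by 1.09 on the log2 scale (SE 0.22, edgeR adjusted p = 0.0044), while its log2 fold change in E12 was -0.21 (SE 0.22, edgeR adjusted p = 0.46). Orc5, an origin recognition subunit, and Cdc6, the loader that joins it, also passed in VF, with log2 fold changes of -1.46 (SE 0.54, edgeR adjusted p = 0.047) and -1.56 (SE 0.55, edgeR adjusted p = 0.042). Both calls were lost without any single library except WT 50 (edgeR adjusted p of 0.051 to 0.12), and Cdc6 had 62.1, 255 and 446 CPM in the 3 WT libraries against 83.2 to 89.3 CPM in VF.

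No helicase core gene fell against WT in the 9-library fit without an offset for gene length. In E12, 1 of 6 genes rose and 5 were not called, and in VF 0 of 6 were called in the edgeR fit, with 1 gene at an unadjusted p under 0.05. Of all tested genes 23.9% rose and 18.1% fell in E12, and 27.7% rose and 20.9% fell in VF. An unadjusted p under 0.05 was reached by 55.8% of tested genes in VF. The median log2 fold change was 0.39 in E12 and -0.06 in VF. Mcm4, a helicase subunit, had 459.5, 455 and 449 CPM in E12, 279, 294 and 290.2 CPM in VF, and 86, 73.7 and 334 CPM in WT. Every E12 library was above every WT library, while VF lay between WT 51 and WT 52. The rise of Mcm4 in E12, 1.47 on the log2 scale (SE 0.53), stood just inside the edgeR threshold with an adjusted p that rounds to 0.05, and it was lost without any single library except WT 52. Mcm6, another subunit, had 1216, 1103 and 1001 CPM in E12, 850.1, 907 and 886 CPM in VF, and 281, 466 and 1921 CPM in WT. Here WT 52 exceeded every mutant library and the other WT libraries lay below all of them. Without WT 52 Mcm6 rose in VF against WT by 0.97 on the log2 scale (edgeR adjusted p = 0.017), against -0.01 with it.

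Of the 6 helicase activation genes, 3 fell and 3 were not called in each comparison with WT, where 18.1% of all tested genes fell in E12 and 20.9% in VF. The genes that fell were 3 of the 4 GINS subunits. Gins1 had 44.3, 39.2 and 47.1 CPM in E12, 33.3, 38.1 and 31.3 CPM in VF, and 446, 169 and 94.8 CPM in WT. Gins4 had 101, 87.7 and 109 CPM in E12, 85.1, 82.5 and 76 CPM in VF, and 785, 305 and 231 CPM in WT. Every mutant library lay below every WT library for both genes, and WT 50 was the highest by far. The log2 fold changes were -2.44 (SE 0.50, edgeR adjusted p = 0.0064) in E12 and -2.79 (SE 0.51, edgeR adjusted p = 0.0026) in VF for Gins1. For Gins4 they were -2.15 (SE 0.44, edgeR adjusted p = 0.0061) in E12 and -2.44 (SE 0.44, edgeR adjusted p = 0.0025) in VF. Gins2 had 71.9, 54.3 and 60.6 CPM in E12, 55.6, 54.8 and 52.5 CPM in VF, and 840.1, 214 and 170.5 CPM in WT. It fell by 2.71 in E12 (SE 0.57, edgeR adjusted p = 0.0068) and fell by 2.91 in VF (SE 0.57, edgeR adjusted p = 0.0037) on the log2 scale. Since 67.3% of the Gins2 exon bases are shared with Gse1 in GENCODE and the libraries carry no strand, reads of these genes may be mixed. The authors' gene length for Gins2 is 1038 bases, against 4097 exon bases in GENCODE, so this share may not hold for the counted gene. Gins3, the remaining subunit, had 34.8 to 37.8 CPM in E12, 28.5 to 35.7 CPM in VF, and 18.2, 85.9 and 68.3 CPM in WT. It was not called in either comparison, and WT 50 lay below all mutant libraries, the reverse of its place for the other 3 subunits.

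Polymerase and primase genes differed in their calls. In E12 against WT 3 of 8 fell and 5 were not called, and in VF against WT 4 of 8 fell and 4 were not called. The shares of all tested genes that fell were 18.1% in E12 and 20.9% in VF. Both primase genes were among those that fell. Prim1, the catalytic subunit that makes RNA primers, had 139, 128 and 137 CPM in E12, 154, 147 and 123 CPM in VF, and 309, 363 and 272 CPM in WT. The mutant groups overlapped each other and lay below WT, and its log2 fold change against WT was -1.22 in E12 (SE 0.22, edgeR adjusted p = 0.0043) and -1.15 in VF (SE 0.22, edgeR adjusted p = 0.0035). Prim2, the regulatory subunit, had 97.8, 92.8 and 95 CPM in E12, 70, 63.7 and 70.4 CPM in VF, and 93.4, 322 and 282 CPM in WT. WT 50 thus fell inside the E12 range, and the edgeR adjusted p was 0.029 in E12 (log2 fold change -1.29, SE 0.40) and 0.0069 in VF (-1.77, SE 0.40). The E12 call was lost without any one of the mutant libraries (edgeR adjusted p of 0.051 to 0.091). Pold2, the second subunit of polymerase delta, had 298, 224 and 217 CPM in E12, 193, 169.6 and 176 CPM in VF, and 617, 573 and 459 CPM in WT, without overlap of either mutant group with WT. Its log2 fold change was -1.16 (SE 0.25, edgeR adjusted p = 0.0073) in E12 and -1.61 (SE 0.25, edgeR adjusted p = 0.0013) in VF. Pold1 and Pole, the catalytic subunits of polymerases delta and epsilon, were not called in either comparison. Prim1, Prim2 and Pold2 have gene lengths of 1533, 1976 and 1610 bases, and Pold1 and Pole of 3424 and 7129 bases. Pold1 had 206 to 246 CPM in E12, 165 to 181 CPM in VF and 47.8, 104 and 178 CPM in WT, and Pole had 105 to 118 CPM in E12, 70.8 to 78.2 CPM in VF and 66.1 to 87.9 CPM in WT.

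The clamp and its loader held the most falls. In E12 against WT 4 of 6 genes fell with a median log2 fold change of -1.68 over the 6, where 18.1% of all tested genes fell. In VF against WT 5 of 6 fell with a median of -1.47, where 20.9% of all tested genes fell. Pcna had 242, 223 and 272 CPM in E12, 181, 187 and 172 CPM in VF, and 1223, 740.4 and 568 CPM in WT. Every mutant library lay below the lowest WT library, and Pcna fell by 1.78 in E12 (SE 0.32, edgeR adjusted p = 0.0039) and fell by 2.23 in VF (SE 0.32, edgeR adjusted p = 0.00098) on the log2 scale. Rfc4 had 195, 143 and 169 CPM in E12, 95, 99.2 and 81.4 CPM in VF, and 1010.2, 596 and 518 CPM in WT. The groups did not overlap, and its log2 fold change of -2.95 in VF (SE 0.33, edgeR adjusted p = 0.00037) was the lowest of the 41 genes, beside -2.07 in E12 (SE 0.31, edgeR adjusted p = 0.0022). Rfc3, a small subunit, had 99.3, 86.2 and 91.4 CPM in E12, 83.8, 85.1 and 68.1 CPM in VF, and 438, 217 and 182 CPM in WT. It fell by 1.60 in E12 (SE 0.34, edgeR adjusted p = 0.0072) and fell by 1.82 in VF (SE 0.34, edgeR adjusted p = 0.0031) on the log2 scale.

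Rfc2 departed from the other genes between the mutant groups. It had 405, 342 and 299.6 CPM in E12, 560.1, 575 and 487 CPM in VF, and 1484, 1176 and 889.6 CPM in WT. Every E12 library lay below every VF library, and both groups lay below WT. The log2 fold change was -1.76 (SE 0.29, edgeR adjusted p = 0.0029) for E12 against WT and -1.13 (SE 0.28, edgeR adjusted p = 0.01) for VF against WT, the second of which was lost without VF 3 (edgeR adjusted p = 0.054). With limma on the authors' deposited log2 levels the VF value of Rfc2 was 0.30, above 0. Rfc2 shares 15.1% of its exon bases with Lat2, and Rfc4 shares 12.7% with Eif4a2, both in GENCODE. The authors' gene length for Rfc2 is 1518 bases, against 6303 exon bases in GENCODE, so its share may not hold for the counted gene. Rfc1, the large subunit, had 99 to 115 CPM in E12, 95.4 to 111 CPM in VF and 125 to 135 CPM in WT, was not called in either comparison and was the least variable of the 41 genes in WT.

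Of the 3 RPA genes the small subunits fell and the large one was not called, where 18.1% of all tested genes fell in E12 and 20.9% in VF. Rpa2 had 302, 277 and 262 CPM in E12, 213, 227 and 201 CPM in VF, and 999, 941 and 795 CPM in WT. With little spread in any group it had the smallest p of the 41 genes in E12 against WT, with a log2 fold change of -1.70 (SE 0.24, edgeR adjusted p = 0.0016), beside -2.09 in VF (SE 0.24, edgeR adjusted p = 0.0004). Rpa3 had 52.1, 45.1 and 57.2 CPM in E12, 49.7, 52.5 and 42.7 CPM in VF, and 484, 161 and 116 CPM in WT. It fell by 2.30 in E12 (SE 0.49, edgeR adjusted p = 0.0073) and fell by 2.39 in VF (SE 0.49, edgeR adjusted p = 0.0046) on the log2 scale. Rpa1, the main DNA-binding subunit, had 456, 381 and 393 CPM in E12, 259, 289 and 274 CPM in VF, and 91.6, 181 and 649 CPM in WT, so the WT libraries bracketed both mutant groups.

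Lig1, the ligase that seals lagging strand pieces, had 191, 188 and 185 CPM in E12, 158, 159.5 and 139 CPM in VF, and 587, 292 and 368 CPM in WT. Every mutant library was below WT, and Lig1 fell by 1.15 in E12 (SE 0.29, edgeR adjusted p = 0.013) and fell by 1.45 in VF (SE 0.29, edgeR adjusted p = 0.004) on the log2 scale, the E12 call being lost without E12 2 (edgeR adjusted p = 0.051). Fen1, the nuclease that trims flaps, had 395 to 532 CPM in E12, 272 to 303 CPM in VF, and 208, 1217 and 1584 CPM in WT. It fell in VF (log2 fold change -1.82, SE 0.60, edgeR adjusted p = 0.031), a call lost without WT 51, E12 2 or any VF library (edgeR adjusted p of 0.051 to 0.093), and was not called in E12 (-1.15, SE 0.59, edgeR adjusted p = 0.14).

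Dtl, which directs the ubiquitin ligase that clears Cdt1 in S phase, rose in each comparison with WT before correction for gene length. It had 157, 124 and 153 CPM in E12, 114, 119 and 106 CPM in VF, and 46.8, 25.7 and 45.5 CPM in WT. The groups did not overlap, and the log2 fold change was 1.88 (SE 0.27, edgeR adjusted p = 0.0019) in E12 and 1.53 (SE 0.27, edgeR adjusted p = 0.0023) in VF. Uhrf1 had 265, 259 and 308 CPM in E12, 174, 186 and 190.5 CPM in VF, and 85.4, 106 and 184 CPM in WT. It rose in E12 (1.15, SE 0.30, edgeR adjusted p = 0.016, and 0.054 without E12 5), while VF overlapped WT (0.55, SE 0.30, edgeR adjusted p = 0.16). With an offset for gene length the values for Dtl were 0.52 in E12 (edgeR adjusted p = 0.2) and 0.06 in VF (edgeR adjusted p = 0.87), and those for Uhrf1 were 0.02 in E12 and -0.64 in VF (edgeR adjusted p = 0.92 and 0.008), so no rise of either gene passed under it.

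The differences from WT followed gene length. Over the 41 genes the log2 fold change and the log2 length had a Pearson correlation of 0.81 (Spearman 0.82) for E12 against WT and 0.78 (0.81) for VF against WT, against 0.27 (0.25) for E12 against VF. These describe 41 genes that share libraries and are not independent. Over all 13608 tested genes the Pearson correlations were 0.35, 0.31 and -0.04 in the same 3 comparisons. With a split at 2 kb that was set with these values known, all 15 shorter replication genes fell in VF and 13 of them in E12, with median log2 fold changes of -1.98 and -1.7. Of all 4303 tested genes under 2 kb 44.7% fell in VF and 43.6% in E12, with medians of -1.03 and -1.04. Among the 26 longer replication genes 5 fell and 1 rose in VF (median -0.39), and 1 fell and 3 rose in E12 (median 0.37). Of all 9305 longer tested genes 9.87% fell and 35.2% rose in VF (median 0.8), and 6.36% fell and 31.1% rose in E12 (median 0.77). Below the median of all tested genes of their class lay 13 of the 15 shorter and 24 of the 26 longer replication genes in VF, and 13 of 15 and 20 of 26 in E12.

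**Figure D4:**
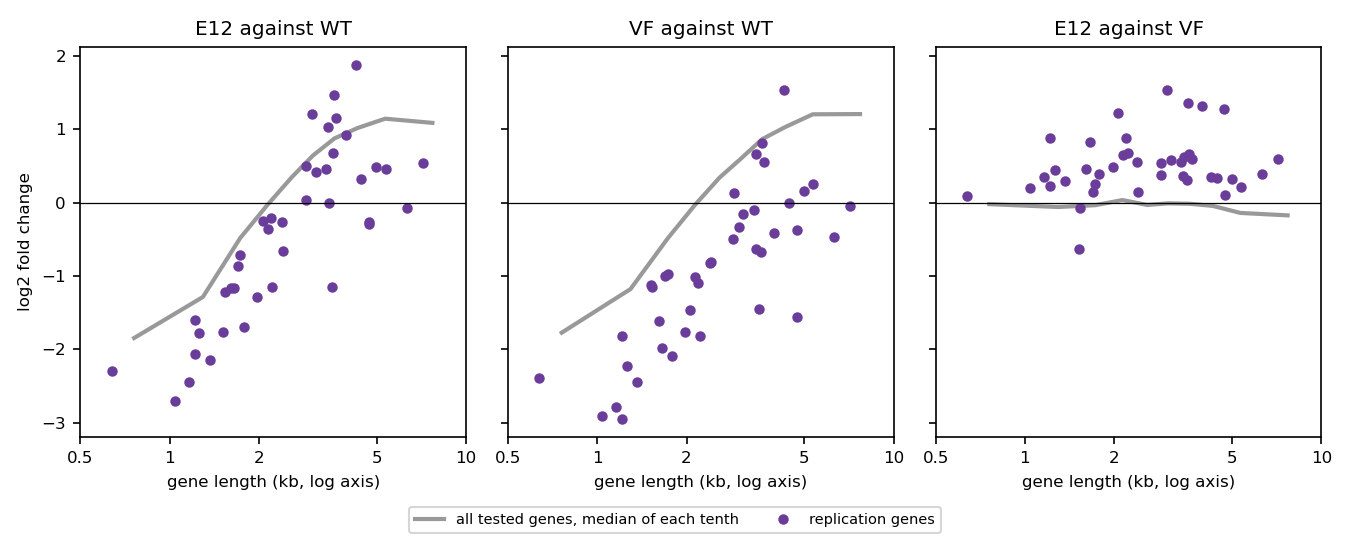
log2 fold change of each of the 41 replication genes (points) by gene length in kb (log axis) for E12 against WT, VF against WT and E12 against VF, with the median of all tested genes in each of 10 equal-sized length bins (line). In the comparisons with WT points and line climb with length and most points lie under the line, and in E12 against VF the line stays near 0 with nearly all points above it.

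When each library's own trend with gene length was taken out as an offset, fewer genes rose and more fell against WT. In VF 34 of the 41 genes fell and 0 rose (edgeR, adjusted p under 0.05), where 32.6% of tested genes fell and 16.5% rose, with a median of -1.37 against -0.35 over all tested genes. In E12 25 fell and 0 rose, where 23.3% fell and 12% rose, with a median of -0.72 against -0.25. Adding GC content to the offset left 32 lower and 0 higher in VF, where 31.1% of tested genes were lower and 17.1% higher, and 21 lower and 0 higher in E12, where 20.9% were lower and 12.4% higher. At an unadjusted p under 0.05 the calls in either direction under the length offset were 38 in VF and 26 in E12, where 55.6% and 45.4% of tested genes passed. In the helicase core, 4 of 6 genes fell in VF under the length offset with a median of -1.21, where 32.6% of tested genes fell. In E12 2 of the 6 fell under it with a median of -0.59, where 23.3% of tested genes fell. Pcna, Rfc4, Rpa2 and the called GINS genes fell in both comparisons with and without the offset.

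Between the mutant groups nearly all replication genes were higher in E12. The log2 fold change of E12 against VF was above 0 for 39 of 41 genes, with a median of 0.45, against -0.05 over all tested genes, and the exceptions were Rfc2 and Prim1. In the edgeR fit of all 9 libraries, whose estimate of the spread includes the scattered WT libraries, 0 of 41 were called, where 2.19% of tested genes were called higher and 1.02% lower. At an unadjusted p under 0.05 9 of the 41 passed, where 17.7% of tested genes did. DESeq2 called 4 higher and 0 lower, where 6.32% and 6.14% of tested genes were called, and limma-voom called 2 higher and 0 lower, where 3.02% and 3.77% were. These shares of the 41 lie near those of all genes. In a fit of the 6 E12 and VF libraries alone 33 of 41 were called higher, 1 lower (Rfc2) and 7 not, where 25.4% of tested genes were called higher and 22.6% lower, with a median of 0.48 against -0.01. Leaving out any 1 of these 6 libraries gave 27 to 32 higher and 1 lower, where 19.6 to 24.7% of tested genes were called higher and 16 to 25.3% lower. In the 9-library fit, 16 were called higher and 1 lower without WT 50, where 12.8% and 10.7% of tested genes were. Without WT 51 2 were called higher and without WT 52 5, where 2.83% and 5.11% of tested genes were. In 34 of 41 genes every E12 library lay above every VF library and in 1 below, where 28.2% of tested genes lay apart above and 31.3% below.

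**Figure D5:**
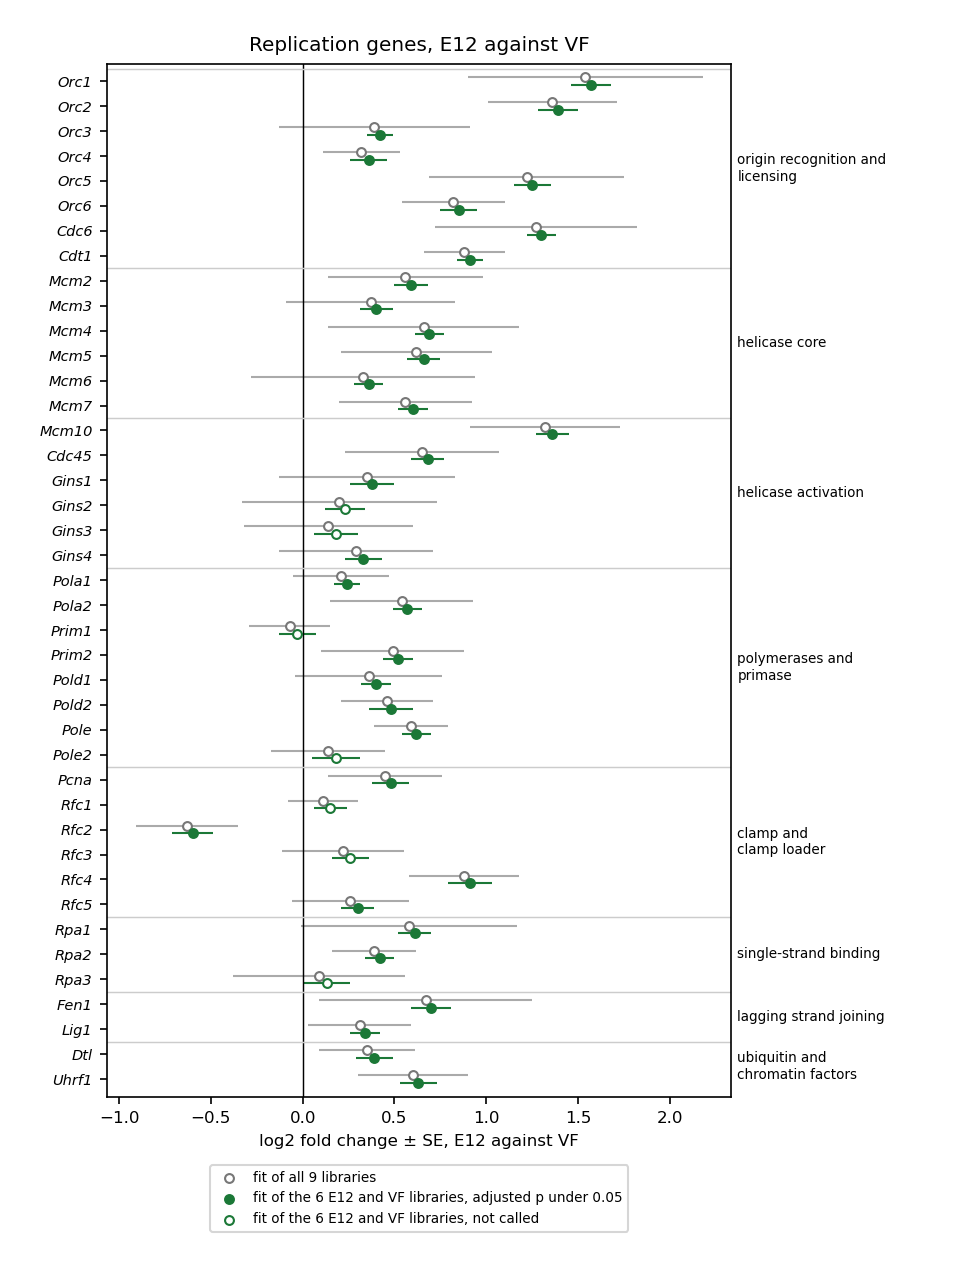
log2 fold change ± SE of each replication gene for E12 against VF, in the edgeR fit of all 9 libraries (grey) and of the 6 E12 and VF libraries (green, filled for an adjusted p under 0.05). The 2 fits give nearly the same fold changes with different SE, licensing genes and Mcm10 reach furthest to the right, and Rfc2 alone is called on the left.

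Licensing genes had the largest difference between E12 and VF by role, with a median log2 fold change of 1.05 in the 9-library fit, beside 0.56 for the helicase core and 0.24 for the clamp and its loader. All 8 licensing genes were called higher in the 6-library fit and lay apart between the groups, where 25.4% of tested genes were called higher and 28.2% lay apart above. With 9 libraries 0 of the 8 were called, where 2.19% of tested genes were called higher. Their log2 fold changes in that fit ran from 0.32 for Orc4 and 0.39 for Orc3 to 1.54 for Orc1. Orc1 had 58.2, 46.7 and 51 CPM in E12, 17.9, 17.4 and 18.2 CPM in VF, and 4.14, 18.6 and 44.4 CPM in WT. Every E12 library was more than 2-fold above every VF library, and WT ran across the VF range. The log2 fold change was 1.54 (SE 0.64, edgeR adjusted p = 0.25) with all 9 libraries and 1.57 (SE 0.11, edgeR adjusted p = 4.3e-05) with 6. Orc2, which holds the core of the complex, had 197, 183 and 222 CPM in E12, 76.7, 88 and 70.9 CPM in VF, and 83.9, 88.9 and 205 CPM in WT. Its values were 1.36 (SE 0.35, edgeR adjusted p = 0.078) with 9 libraries and 1.39 (SE 0.11, edgeR adjusted p = 6.5e-05) with 6, though 29.8% of its exon bases are shared with Nif3l1.

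Cdc6 had 216, 212 and 196 CPM in E12 against 83.2, 86.4 and 89.3 CPM in VF, without overlap. Its log2 fold change of 1.27 (SE 0.55, edgeR adjusted p = 0.27) with 9 libraries was 1.30 (SE 0.08, edgeR adjusted p = 2.4e-05) with 6. Cdt1, whose values are given above, differed by 0.88 (SE 0.22, edgeR adjusted p = 0.071) with 9 and 0.91 (SE 0.07, edgeR adjusted p = 6.7e-05) with 6. Orc6 differed by 0.82 (SE 0.28, edgeR adjusted p = 0.16) and 0.85 (SE 0.10, edgeR adjusted p = 0.00029). Licensing genes made 11.4 to 12.3% of the summed CPM of the 41 genes in E12 libraries and 8.3 to 8.38% in VF libraries, so their share of the pool was larger in every E12 library.

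In the helicase core all 6 genes were called higher in the 6-library fit, with log2 fold changes from 0.36 to 0.69, where 25.4% of tested genes were called higher. Mcm2, a subunit of the ring, had 723, 625 and 589 CPM in E12, 422, 441 and 448 CPM in VF, and 270.4, 297 and 837 CPM in WT. E12 lay above VF in every library, and WT lay on both sides of the mutants. Mcm10 had 118, 124 and 106 CPM in E12, 45.5, 47 and 46.6 CPM in VF, and 33, 42.4 and 109 CPM in WT. Its log2 fold change of 1.32 (SE 0.41, edgeR adjusted p = 0.12) with 9 libraries and 1.36 (SE 0.09, edgeR adjusted p = 3e-05) with 6 stood beside 0.14 to 0.35 for the GINS genes with 9 libraries. Rfc4 was highest among the loader genes with 0.88 (SE 0.30, edgeR adjusted p = 0.16) with 9 and 0.91 (SE 0.12, edgeR adjusted p = 0.00049) with 6. Pcna differed by 0.45 (SE 0.31, edgeR adjusted p = 0.51) with 9 and 0.48 (SE 0.10, edgeR adjusted p = 0.0047) with 6. Rfc2 was the exception, at -0.63 (SE 0.28, edgeR adjusted p = 0.28) with 9 and -0.60 (SE 0.11, edgeR adjusted p = 0.0031) with 6. The 7 genes not called with 6 libraries were Gins2, Gins3, Prim1, Pole2, Rfc1, Rfc3 and Rpa3. Under the gene length offset with all 9 libraries 10 of 41 were called higher and 0 lower, where 7.92% of tested genes were called higher and 2.64% lower. With GC content added 10 were called higher and 1 lower, where 8.34% of tested genes were called higher and 3.04% lower.

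Markers of other cell states moved with the same groups. The 7 proliferation markers outside replication, such as Mki67 and Top2a, summed to 1858, 1733 and 1943 CPM in E12, 1173, 1234 and 1112 CPM in VF, and 4219, 2384 and 2525 CPM in WT. All 7 lay apart above VF in E12, where 28.2% of tested genes did. Against WT, Cdk1 and Birc5 were called lower in E12 and 0 of the 7 higher, where 18.1% and 23.9% of tested genes were. Top2a lay above WT in every E12 library, with 430.2, 417 and 434 CPM in E12 and 298, 224 and 325 CPM in WT. Mki67 overlapped WT. The 13 erythroid markers summed to 12539, 8941 and 24116 CPM in E12, 1336, 1987 and 1461 CPM in VF, and 40498, 28840.1 and 23722 CPM in WT. All 13 had counts in every library, and 10 were called higher in E12 than in VF with 9 libraries and 10 lower in VF than in WT, where 2.19% and 20.9% of tested genes were. Against WT, 4 were called lower in E12 and 2 higher (Tfrc and Slc4a1), where 18.1% and 23.9% of tested genes were. Tfrc had 1206, 798 and 1621 CPM in E12 and 89.6 to 145 CPM in WT. Slc4a1 had 431 CPM in E12 5 and at most 6.29 CPM elsewhere. In E12 5 Hba-a1 and Hbb-bs had 9034 and 3589.7 CPM, against 242 to 339 and 50.8 to 75.2 CPM in E12 1 and E12 2. The 10 megakaryocyte markers summed to 367 to 445 CPM in E12, 1905 to 2449 CPM in VF and 62.1 to 176 CPM in WT. Of these Itgb3, Ppbp and Gp6 were at 0 in all WT libraries, and Gp6 had at most 0.234 CPM in any library. In E12 against WT 5 of the 10 were called higher and 0 lower, where 23.9% and 18.1% of tested genes were. The 9 stem and multipotent progenitor markers summed to 582 to 901 CPM in E12, 1929 to 1941 CPM in VF and 97.4 to 212 CPM in WT, and the 10 neutrophil and monocyte markers summed to 1318 to 2236 CPM in E12, 6827 to 12849 CPM in VF and 145 to 773 CPM in WT. In each of these 5 sums every E12 library lay between VF and WT, except that the erythroid sum of E12 5 exceeded that of WT 52. Single markers such as Top2a and Tfrc departed from this order. In the neutrophil and monocyte list Mpo alone had 909 to 1735 CPM in E12. Elane, Cebpe and Ly6c2 of that list had lower mean CPM in E12 than in WT (56.1 against 124 for Elane), with overlapping libraries. The other 3 marker sums did not keep this order. The 6 B cell markers summed to 52.7, 27.8 and 574 CPM in E12, 122, 136 and 234 CPM in VF, and 3759.8, 784 and 314 CPM in WT. WT 50, highest by far in this sum, was also the highest library for Gins1, Gins2, Gins4 and Rpa3. Without WT 50 all 4 genes were called lower as well, with log2 fold changes of -1.77 to -1.57 in E12 and -2.1 to -1.66 in VF (edgeR adjusted p of 0.00015 to 0.00082 and 4.5e-05 to 0.00024). The B cell sums of WT 51 and WT 52 also lay above every VF library, and that of E12 5 lay above that of WT 52. The 6 T and NK cell markers summed to 137 to 248 CPM in E12, 512 to 595 CPM in VF and 143 to 1151 CPM in WT, with WT 50 again highest. The 5 mast cell and basophil markers summed to 33.3 to 169.6 CPM in E12, 294 to 357 CPM in VF and 25.7 to 121 CPM in WT. The part of cell make-up in the replication genes' differences was not tested.

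A list of 28 other replication genes, chosen with earlier results of these data known, was read beside the 41. Of these 7 rose and 11 fell in E12 against WT (median log2 fold change 0.13), where 23.9% of all tested genes rose and 18.1% fell, so the share that rose is near that of all genes. In VF against WT 3 rose and 12 fell (median -0.54), where 27.7% rose and 20.9% fell. Under the gene length offset 2 rose and 10 fell in E12, where 12% of tested genes rose and 23.3% fell, and 0 rose and 22 fell in VF, where 16.5% rose and 32.6% fell. In E12 against VF 2 were called higher and 0 lower with 9 libraries, where 2.19% and 1.02% of tested genes were. With 6 libraries 19 were higher and 1 lower, where 25.4% and 22.6% were, and 26 of 28 lay above 0. The 2 called with 9 libraries were Donson, a factor that helps GINS onto the helicase, and Recql4, a helicase that acts at origin firing. Donson had 73.1, 49.4 and 65.8 CPM in E12, 21.7, 30 and 24.4 CPM in VF, and 14.2, 10.8 and 11.8 CPM in WT. The groups did not overlap, and its log2 fold change was 1.31 (SE 0.26, edgeR adjusted p = 0.032) for E12 against VF and 2.35 (SE 0.26, edgeR adjusted p = 0.00082) for E12 against WT. Donson also rose in VF against WT, by 1.05 (SE 0.26, edgeR adjusted p = 0.0092). Recql4 had 41, 40.2 and 39.9 CPM in E12, 8.51, 14 and 8.52 CPM in VF, and 36.3, 13.3 and 42.1 CPM in WT, a difference of 1.97 (SE 0.43, edgeR adjusted p = 0.044) for E12 against VF. E12 lay above VF in every library for Recql4, while WT 51 lay inside the VF range and WT 50 and WT 52 above it. Recql4 fell in VF against WT (log2 fold change -1.56, SE 0.42, edgeR adjusted p = 0.014), a call lost without VF 1 or VF 3 (edgeR adjusted p of 0.058 and 0.059). The calls of Donson and Recql4 in E12 against VF were lost without any single mutant library, and 14 of the 28 were called higher without WT 50, where 12.8% of tested genes were.

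Timeless, a scaffold that keeps helicase and polymerase together, had 125, 128 and 122 CPM in E12, 75.2, 79 and 69.5 CPM in VF, and 287, 302 and 241 CPM in WT. It fell by 1.14 in E12 (SE 0.21, edgeR adjusted p = 0.004) and fell by 1.89 in VF (SE 0.21, edgeR adjusted p = 0.00038) on the log2 scale, with groups that did not overlap. Clspn, an adaptor of the replication checkpoint, had 44.5, 46.4 and 56.6 CPM in E12, 29.8, 27.6 and 24.2 CPM in VF, and 105, 76.4 and 74.7 CPM in WT, again without overlap. Clspn fell by 0.80 in E12 (SE 0.23, edgeR adjusted p = 0.021) and fell by 1.65 in VF (SE 0.23, edgeR adjusted p = 0.00091), the E12 call being lost without E12 1 or E12 2 (edgeR adjusted p = 0.08 for each). Pole3, a histone-fold subunit of polymerase epsilon, had 66.7, 59.5 and 58.4 CPM in E12, 36.5, 35.6 and 33.4 CPM in VF, and 338, 174 and 166 CPM in WT. The 3 groups did not overlap, with VF lowest. Pole3 fell by 1.88 in E12 (SE 0.30, edgeR adjusted p = 0.0028) and fell by 2.68 in VF (SE 0.31, edgeR adjusted p = 0.00043), and under the length offset the E12 value of Pole3 was -0.39 (edgeR adjusted p = 0.33). Dscc1, part of an alternative clamp loader, had 33, 26.5 and 27 CPM in E12, 19.2, 21 and 20 CPM in VF, and 156, 87.1 and 55.2 CPM in WT, without overlap. It fell by 1.79 in E12 (SE 0.36, edgeR adjusted p = 0.0058) and fell by 2.31 in VF (SE 0.36, edgeR adjusted p = 0.0014). Dna2, a nuclease of lagging strand processing, had 106, 93.3 and 111 CPM in E12, 52.4, 57.2 and 48.5 CPM in VF, and 12.4, 13.4 and 27 CPM in WT. It rose against WT by 2.55 in E12 (SE 0.32, edgeR adjusted p = 0.0012) and by 1.58 in VF (SE 0.31, edgeR adjusted p = 0.0039). Chaf1a, a subunit of the assembly factor that puts histones on new DNA, had 166, 183 and 154 CPM in E12, 92.7, 96.5 and 105 CPM in VF, and 90.2, 111 and 111 CPM in WT. E12 lay above both other groups, which overlapped, and the log2 fold change of 0.77 for E12 against VF (SE 0.20, edgeR adjusted p = 0.081) in the 9-library fit did not pass.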

How the data were processed

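RNA was measured in 9 MEP libraries, 3 each from E12, VF and WT mice, grouped by the genotype in the labels. Per the labels, a PicoPure kit gave the RNA and Smart-Seq2 the libraries, a method that carries no molecular identifiers and no strand. The authors deposited raw counts per gene with a gene length, and log2 expression levels scaled between libraries. STAR, limma, GRCm38 and mm10 are named, per the submitters' processing notes, and which tool and annotation made the counts is not given in the sources used here. Total counts ran from 19256431 to 39736096 per library, and such counts of reads carry counting error only within a library.

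The deposited counts were tested with edgeR 4.0.16 in R 4.3.3. filterByExpr kept 13608 of 17769 genes, TMM factors scaled the libraries, and all 9 libraries entered 1 quasi-likelihood fit with the group as its only term. P-values were two-sided, Benjamini-Hochberg adjusted over the 13608 genes and called under 0.05. SE is the log2 fold change divided by the root of the F statistic. RPKM is the TMM-scaled CPM per kilobase of the authors' gene length. The length offset took out a loess trend (span 0.3) of each library's log2 CPM with log2 gene length, and a further offset added GC content, known for 93.9% of tested genes. Promoters came from RefSeq (GRCm38.p6) and exon overlaps from GENCODE. The fit's code was tested on simulated data. Figures were drawn with matplotlib 3.10.9.

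Alternatives were RLE scaling, no filter and a filter at 1 CPM, DESeq2 1.42.0, limma-voom and limma on the deposited log2 levels (limma 3.58.1), fits of only the 2 groups compared, the length offset, a fit with the replicate number as a block, and fits without each library or without WT 50 and E12 5 together. The GC offset, the length offset with 2 groups and the 6-library fits without each library were added after seeing the data. The 41 genes, the other lists and the tests were chosen with earlier results of these data known. Values in every library are given for those of the 41 genes called in E12 against VF or in both comparisons with WT, for the 3 of them with the smallest p per comparison, and for up to 4 other replication genes with the smallest p per comparison. Cdc6, Orc1, Mcm2, Mcm4, Mcm6, Rpa1 and Uhrf1 were given in full after their values were seen.

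No libraries were duplicates of each other. The replicate numbers 1 and 2, shared by E12 and VF, gave correlations of deviations of 0.00975 and 0.103, so they were not taken to pair samples.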

Additional observations from a re-analysis of the deposited data

How the results depend on the processing

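For E12 against WT, 3 of 41 genes rose and 14 fell with a median log2 fold change of -0.27. The number that rose was 5 with DESeq2, 6 with limma-voom, 11 with limma on the deposited levels, 1 with the 2 groups alone, and 0 with the length offset, the length and GC offset, or the length offset with 2 groups. The number that fell was 8 with the deposited levels, 25 with the length offset, 8 with the length offset and 2 groups, and 23 without WT 50 and E12 5. Of all 13608 tested genes 3601 rose with DESeq2 and 4141 with limma-voom. With the length offset and 2 groups 885 of 12791 tested genes rose and 1197 fell. The count without WT 50 and E12 5 stands here without the share of all tested genes. The median was 0.35 with the deposited levels, -0.72 with the length offset, -0.61 with the length and GC offset and -0.71 without WT 50 and E12 5. Leaving out 1 library gave 1 to 11 that rose, 11 to 26 that fell and medians of -0.84 to -0.25.

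For VF against WT, 1 rose and 20 fell with a median of -0.98. The number that rose was 6 with the deposited levels and 0 with each of the 3 fits with an offset. With the length offset and 2 groups 1861 of 13422 tested genes rose. The number that fell was 12 with the deposited levels, 34 with the length offset and 32 with the length and GC offset. The median was -0.77 with limma-voom, -0.29 with the deposited levels, -1.37 with the length offset, -1.3 with the length and GC offset, -1.29 with the length offset and 2 groups, and -1.24 without WT 50 and E12 5. Leaving out 1 library gave 1 to 6 that rose, 14 to 30 that fell and medians of -1.28 to -0.89.

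For E12 against VF, none of the 41 genes was called in the 9-library edgeR fit (0 higher, 0 lower, 9 at an unadjusted p under 0.05), with a median of 0.45. The number higher was 4 with DESeq2, 2 with limma-voom, 6 with the deposited levels, 33 with the 2 groups alone, 10 with the length offset, 10 with the length and GC offset, 35 with the length offset and 2 groups, and 15 without WT 50 and E12 5. With the deposited levels 973 of 13608 tested genes were called higher and 811 lower. With the length offset and 2 groups 3907 of 13356 tested genes were called higher and 2750 lower. The number of the 41 called higher was 26 in the fit of libraries 1 and 2 of each group with a replicate block and 26 in the same 4 libraries without the block, so the pairing by number moved no count. These counts of 26, and the 15 without WT 50 and E12 5, stand here without the share of all tested genes. The number lower was 1 with the deposited levels, the 2 groups alone, the length and GC offset, the length offset with 2 groups, and the 4 libraries with and without the block. The median was 0.27 with the deposited levels, 0.58 with the length offset, 0.56 with the length and GC offset and 0.56 with the length offset and 2 groups. Leaving out 1 library gave 0 to 16 higher, 0 to 1 lower and medians of 0.38 to 0.5, and in the fit of 6 libraries 27 (without VF 3), 28 (VF 1), 30 (VF 2 or E12 1), 31 (E12 5) and 32 (E12 2) higher and 1 lower.

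Of 3332 values of single genes under an alternative, 2448 kept direction and call, 145 lost a call, 617 gained one and 23 reversed. The remaining 99 kept their call but changed sign or rounded to 0. Against WT the reversed values under the length offset were -0.9 for Orc4, -1.05 for Pola1, -0.87 for Pole and -0.41 for Chaf1a in E12, and -1.37 for Orc4, -1.42 for Pola1 and -0.64 for Uhrf1 in VF. With GC content added they were -1.31 for Orc4, -1.14 for Pola1, -0.64 for Pole and -0.19 for Chaf1a in E12, and -1.85 for Orc4, -1.43 for Pola1, -1.05 for Pold1 and -0.47 for Uhrf1 in VF. With the length offset and 2 groups they were -0.17 for Chaf1a in E12, and -1.29 for Orc4, -1.33 for Pola1 and -0.56 for Uhrf1 in VF. With the deposited levels Rfc2 was at 0.3 and Rfc5 at 0.13 in VF, and with 1 library left out Pola2 ran from -0.47 (WT 50) to 0.19 (WT 51) in E12 and Mcm6 from -0.5 (WT 50) to 0.97 (WT 52) in VF. RLE scaling moved the median of all tested genes against WT to 0.17 in E12 and 0.21 in VF, where TMM gave 0.36 in both. The cause of these changes was not tested beyond what each setting alters. All 41 genes had counts in every library, and their SE for E12 against VF was larger with the WT libraries in the fit than without them for the genes described with both fits.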
